A study of Mus musculus with 2 samples.

Results

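Nuclear receptors are transcription factors, most of which bind a small lipophilic ligand such as a steroid, a bile acid, a retinoid or a drug. A list of 37 genes of this family was examined in the colon and the small intestine of the mouse, picked by gene name. Of the 37, 35 had a probe set that names the gene alone, and Nr1h2 and Nr2e3 had none. These 35 are among 18194 genes named on the arrays. Each gene was represented by its brightest probe set, that is the set of short oligonucleotides with the highest mean over both arrays. Of the 35 receptors, 21 lay above the background level of 5 on the log2 scale on at least 1 array, and a single receptor, Nr1i3, differed by 3-fold or more.

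The data consisted of 2 Affymetrix mouse expression arrays, 1 of colon and 1 of small intestine. Both tissues came from wild-type adult mice as biopsies, with no treatment, and the labels give neither the strain nor the number of animals behind an array. With 1 array per tissue there was no replicate error, and no difference given here was tested. Levels are log2 expression values. Differences are small intestine minus colon on that scale, floored, meaning that values under 5 were first raised to 5, and folds are made from them. With 1 tissue at or below 5 the true ratio may be larger, and the fold is then given with the words at least. Levels of different genes come from different probes and are not set against each other.

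Both arrays carried the marker genes of their labels. All 7 measured small intestine markers, such as Apoa1 and Lct, were past 3-fold in the small intestine, and all 6 colon markers, such as Car1 and Hoxb13, were past it in the colon. The colon array also carried all 7 measured genes of the exocrine pancreas, at 9.96 to 13.95 against 2.30 to 4.56. Of 10 smooth muscle markers, 5 were past 3-fold in the colon, and 4 of 6 T cell markers were past it in the small intestine. Epithelial markers were above background throughout, at 7.43 to 14.95 in the colon and 7.82 to 14.73 in the small intestine. In whole tissue, fewer cells of a type and less RNA per cell cannot be told apart. Differences between probe sets of the same gene had a pooled SD of 0.59 over 3887 genes. Of the 18 hybridization spike-in probe sets, 14 differed by -0.08 to 0.33, whereas the 4 for bioC were 1.39 to 1.52 lower on the small intestine array.

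Most of these receptors bind DNA as dimers, and many of them pair with a retinoid X receptor. In the gut they are known as sensors of food components, bile acids, drugs and hormones, which switch on genes of uptake, export and detoxification. The glucocorticoid and sex steroid receptors act as homodimers and are held by heat shock chaperones until a ligand binds. Orphan receptors of the family have no known ligand or none that is settled.

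At the 3-fold rule 1 of 35 receptors (2.86%) was higher in small intestine and 0 were higher in colon. Of all named genes, 3.46% were called for small intestine and 3.33% for colon, so the share of receptors called in the small intestine was near that of all genes. These shares stand beside every list of related genes below, and in a list of few genes no call at all is near them. At 2-fold, 5 receptors (14.3%) were higher in small intestine and 1 (2.86%) in colon, against 6.95% and 8.14% of all named genes. The 21 receptors above background on either array make up 60% of those measured, and the same share of all named genes was 60.5%. Of the 21, 17 were above background on both arrays, 3 on the small intestine array alone and 1 on the colon array alone. Their median absolute difference was 0.50, and that of all genes above background on either array was 0.52. By any size, 13 of the 21 had the higher value in small intestine and 8 in colon, and with the median over the probe sets of a gene these counts were 9 and 3. The 8 include Ppara, Nr3c1 and Nr2c1, whose probe sets pointed in both directions. The median difference was 0 over the 35 receptors and 0 over all genes.

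**Figure D1:**
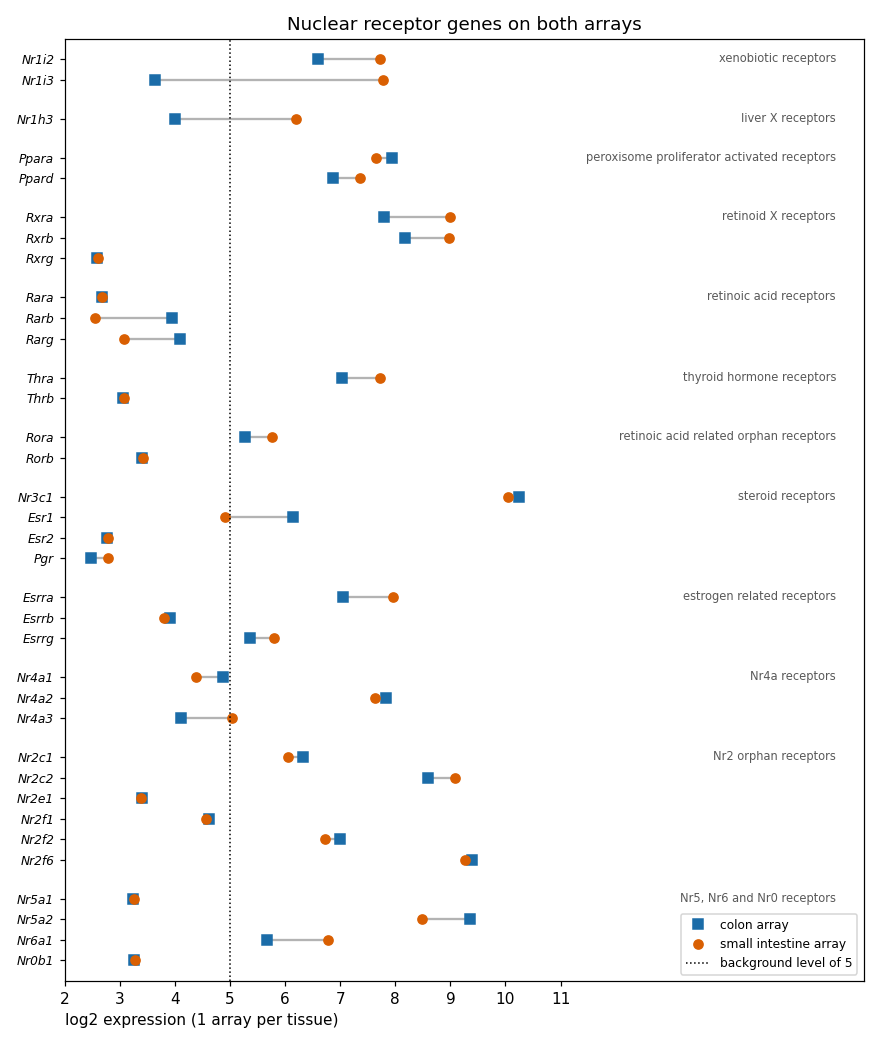
Log2 expression of the 35 measured receptors on the colon array (squares) and the small intestine array (circles), grouped by subfamily, the dotted line marking background at 5. Nr1i3 is at 3.63 in colon and 7.77 in small intestine, while all receptors for retinoic acid lie left of the line on both arrays.

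The xenobiotic receptors were the group with the largest difference. Nr1i3 encodes the constitutive androstane receptor CAR, which drives genes of drug clearance. Its level was 3.63 in the colon, below background, and 7.77 in the small intestine, which is at least 6.81-fold higher than in the colon. The floored difference of Nr1i3 was 2.77, and 3.77 or 1.77 with the background level at 4 or 6. Nr1i3 had 1 probe set, marked as matching several transcripts of the gene, so no other probe set could be compared with it. Nr1i2, the pregnane X receptor PXR that is bound by many drugs and steroids, had 6.59 in colon and 7.73 in small intestine (2.20-fold). Both arrays measured Nr1i2 above background, and its other probe set had 6.26 and 7.11 (1.81-fold in the same direction).

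Known target genes of PXR and CAR differed widely and in both directions. Of 11 measured, 5 were past 3-fold in small intestine and 3 in colon, and their median difference was 1.18. The cytochrome P450 genes Cyp3a11 and Cyp2b10 had 13.55 and 11.44 in the small intestine against 6.43 and 2.99 in the colon, 138-fold and at least 86.6-fold. Cyp2b10, a common readout of CAR, was past 3-fold on each of its 3 probe sets. The exporter Abcc2 was at least 17.4-fold and Cyp3a13 4.81-fold higher in the small intestine. A further gene of the list, Cyp3a25, was 11.1-fold higher there and was named after its value was seen. In the colon Cyp2c55 was 110-fold higher, with 14.34 against 7.56. The drug efflux pump Abcb1a, with 13.18 in colon and 11.01 in small intestine, was 4.52-fold higher in the colon, and its other probe set differed by -1.60, just past 3-fold. Gstm1, a glutathione transferase also named after its value was seen, was 4.69-fold higher in the colon on the brightest of its 4 probe sets alone.

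The start regions of the xenobiotic receptors, of Nr1h3 and of their shared partner Rxra are shown because these are the receptors of the metabolic sensor group that differed by 2-fold or more. Each window runs from 250 bases before to 50 after an annotated start in RefSeq (GRCm38.p6), read 5' to 3' on the strand of the gene, with CG dinucleotides in capitals. Where RefSeq gives several starts, the window with the most CG dinucleotides is printed. The window of Nr1i3 lies at chr1:171213720-171214019 on the plus strand and holds 3 CG dinucleotides.
Nr1i3: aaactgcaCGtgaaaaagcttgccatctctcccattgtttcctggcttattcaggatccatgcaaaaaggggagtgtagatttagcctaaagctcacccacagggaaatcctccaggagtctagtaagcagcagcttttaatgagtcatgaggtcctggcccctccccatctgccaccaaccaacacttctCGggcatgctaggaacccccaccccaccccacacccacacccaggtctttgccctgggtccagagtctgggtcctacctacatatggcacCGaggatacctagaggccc
The window of Nr1i2, at chr16:38294775-38295074 on the minus strand, holds 2.
Nr1i2: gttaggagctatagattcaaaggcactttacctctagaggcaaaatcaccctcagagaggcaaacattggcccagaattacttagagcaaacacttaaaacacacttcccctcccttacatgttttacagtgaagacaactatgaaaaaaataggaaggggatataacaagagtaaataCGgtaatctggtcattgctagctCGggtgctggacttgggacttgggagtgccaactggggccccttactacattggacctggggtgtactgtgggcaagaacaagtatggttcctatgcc
That of Nr1h3, at chr2:91194986-91195285 on the minus strand, holds 10.
Nr1h3: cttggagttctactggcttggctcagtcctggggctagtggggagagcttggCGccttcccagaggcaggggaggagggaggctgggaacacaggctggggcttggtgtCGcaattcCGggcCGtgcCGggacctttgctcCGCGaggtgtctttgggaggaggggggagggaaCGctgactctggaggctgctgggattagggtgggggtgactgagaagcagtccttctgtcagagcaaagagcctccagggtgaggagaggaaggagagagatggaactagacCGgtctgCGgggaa
For Rxra, at chr2:27676951-27677250 on the plus strand, the count was 55, and 83% of the bases were G or C.
Rxra: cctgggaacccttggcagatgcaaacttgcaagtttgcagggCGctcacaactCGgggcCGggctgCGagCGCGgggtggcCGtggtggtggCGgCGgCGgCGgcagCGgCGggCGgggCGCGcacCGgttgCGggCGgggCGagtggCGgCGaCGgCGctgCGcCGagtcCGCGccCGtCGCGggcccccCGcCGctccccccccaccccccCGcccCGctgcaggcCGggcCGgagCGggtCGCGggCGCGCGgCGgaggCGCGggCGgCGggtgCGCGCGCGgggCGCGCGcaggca

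The liver X receptors respond to oxysterols and govern cholesterol efflux. Nr1h3, which encodes LXR alpha, had 3.99 in colon and 6.19 in small intestine, an excess of at least 2.29-fold. It was above background in the small intestine alone, on its single probe set. Its fold rests on the background level, since the floored difference of Nr1h3 was 2.19 with a level of 4 and 0.19 with a level of 6. Of 11 measured LXR targets, 3 were past 3-fold in small intestine and 1 in colon, with a median of -0.83. Abcg5 and Abcg8, which form the sterol exporter of the brush border, were 17.1-fold and at least 4.77-fold higher in small intestine. With the background level at 6 the floored difference of Abcg8 was 1.25, under 3-fold. The cholesterol efflux pump Abca1 was 4.38-fold higher there, with 9.92 against 7.79 on the single one of its 3 probe sets above background. The desaturase Scd1, with 11.15 in colon and 9.31 in small intestine, was 3.58-fold higher in the colon, although its other probe set differed by only -0.51. Smpdl3a, a further target, had 13.06 and 11.82 and lay under 3-fold.

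The peroxisome proliferator activated receptors bind fatty acids and direct their oxidation. Ppara had 7.94 in colon and 7.64 in small intestine (1.23-fold) on its brightest probe set. Its other probe sets did not give the same picture, with differences of 0.01 and 1.74, the latter from 5.53 in the colon to 7.27 in the small intestine (3.35-fold). No direction can therefore be given for Ppara. Ppard had 6.87 and 7.37, 1.41-fold higher in the small intestine.

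Among 16 measured PPAR targets, 5 were past 3-fold in small intestine and 3 in colon, with -0.57 as the median. Fabp1, the fatty acid binding protein of enterocytes, was 760-fold higher in the small intestine and is also a marker of that tissue. The transcription factor Creb3l3 (18.5-fold), the pantetheinase Vnn1 (7.03-fold) and the lipase inhibitor Angptl4 (5.20-fold) were higher there as well. Higher in the colon was Slc25a20, the carnitine carrier of mitochondria, with 13.37 against 11.72 (3.14-fold) and past 3-fold on both probe sets. Acaa1b (5.01-fold) and Acot2 (3.19-fold) made up the rest of the colon count, and Cd36 (3.11-fold) the rest of the small intestine count. All of these were named after their values were seen, Acot2 and Cd36 on the brightest of 2 and 3 probe sets alone. Acadm, an acyl-CoA dehydrogenase, had 11.91 and 11.14.

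The retinoid X receptors are the common partners of the sensors above. Rxra had 7.80 in colon and 8.98 in small intestine, 2.28-fold higher in the small intestine. Rxrb had 8.18 and 8.98, 1.74-fold in the same direction. Rxrg lay at background on both arrays, with 2.58 and 2.60. The other 2 probe sets of Rxra were at background, so that its value rests on 1 probe set, and the median over its probe sets gave a difference of 0.

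The receptors for retinoic acid were at background on both arrays without exception. Rara had 2.67 in colon and 2.68 in small intestine, on 1 probe set. Rarb had 3.95 and 2.55, and Rarg 4.08 and 3.07. Values under 5 carry no order, so these are not differences, and a level below background does not show that a gene is silent. In the 16 measured genes of retinoic acid synthesis, binding, breakdown and response, 3 were past 3-fold in small intestine and 1 in colon, with 5 at background. The retinol dehydrogenase Rdh7 (at least 100-fold), the retinol binding protein Rbp2 (74.5-fold) and Aldh1a3, an enzyme that makes retinoic acid (12.3-fold), were higher in the small intestine. Another enzyme of that step, Aldh1a1, was 3.54-fold higher in the colon, with 13.31 against 11.49. The transglutaminase Tgm2, a retinoic acid target, had 10.91 in colon and 11.61 in small intestine.

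**Figure D2:**
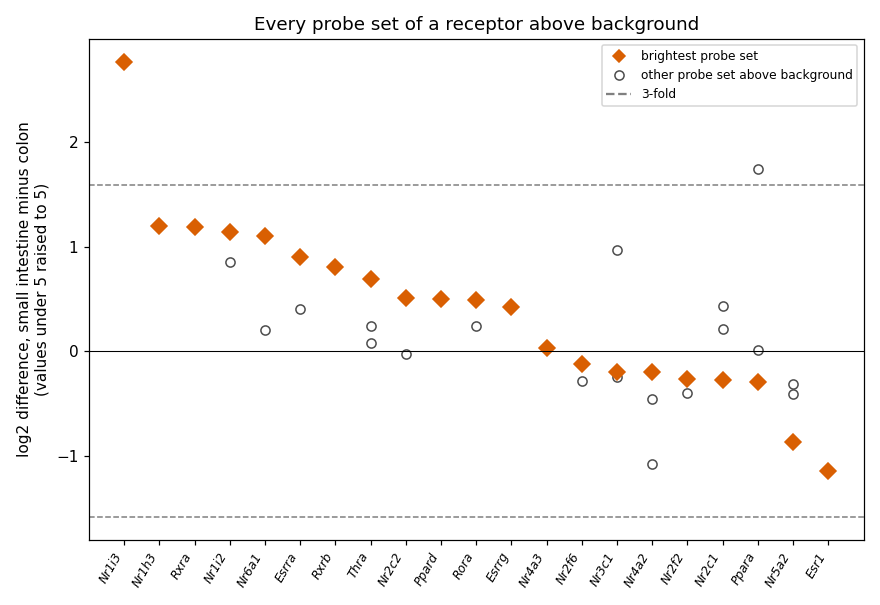
Log2 difference, small intestine minus colon, of each probe set above background in the 21 receptors, with the brightest probe set as a diamond, others as open circles, and dashed lines at 3-fold. The brightest set of Nr1i3 is at 2.77, and the sets of Ppara spread from -0.30 to 1.74.

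Of the thyroid hormone receptors, Thra was above background on both arrays and Thrb on neither. Thra had 7.03 in colon and 7.72 in small intestine (1.61-fold), and its 3 probe sets differed by 0.08 to 0.69, all in favour of the small intestine. Thrb had 3.06 and 3.07. Of 9 measured genes of thyroid hormone handling and response, 2 were past 3-fold in small intestine and 0 in colon. These were intestinal alkaline phosphatase (Alpi, 43.6-fold), a gene known to respond to thyroid hormone in the gut, and the aromatic amino acid and hormone transporter Slc16a10 (at least 25.8-fold). The 4 probe sets of Slc16a10 differed by 0.40 to 4.69. The deiodinase Dio1, which makes the active hormone, had 12.38 in colon and 11.24 in small intestine, and the target Klf9 had 12.12 and 11.13, with probe sets that differed by -1.06 to 1.23.

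The retinoic acid related orphan receptors take part in the circadian clock. Rora had 5.27 in colon and 5.76 in small intestine, which is 1.41-fold. Of its 9 probe sets, 2 were above background, with differences of 0.24 and 0.49. Rorb was at background, with 3.40 and 3.41. Of 8 clock genes listed beside these receptors, Dbp alone was past 3-fold. It had 9.31 in colon and 11.43 in small intestine (4.36-fold), with the same direction on both probe sets. Clock had 9.61 and 9.25. The labels do not state the time of day at which tissue was taken.

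Among the steroid receptors, the glucocorticoid receptor Nr3c1 was above background on both arrays, with 10.24 in colon and 10.04 in small intestine (1.15-fold). A further probe set differed by -0.25, and another, marked as shared between transcripts, by 0.97, so that no direction holds for all of them. The estrogen receptor Esr1 had 6.15 in colon and 4.91 in small intestine, at least 2.21-fold in favour of the colon, and was the single receptor past 2-fold there. With the background level at 6 the floored difference of Esr1 was -0.15. It was above background in the colon alone and on 1 of 3 probe sets. The 10 smooth muscle markers had a list median of -1.65 and none at background. Their individual levels were 5.40 to 13.16 in the colon and 5.35 to 12.16 in the small intestine. Of these markers 5 were past 3-fold in the colon, while Lmod1 alone was higher in the small intestine, with 5.40 and 6.11. Of 8 fibroblast markers, 3 were past 3-fold in colon and 1, Pdgfrb, in small intestine (5.40-fold), while the probe sets of Col1a1, among those 3, differed by -1.98 and 0.04. The part of either list in the value of Esr1 was not tested. Esr2 (2.77 and 2.78) and the progesterone receptor Pgr (2.48 and 2.79) were at background on both arrays.

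Of 13 glucocorticoid targets and enzymes that activate or inactivate the hormone, 1 was past 3-fold in small intestine and 2 in colon, with a median of 0.13. Hsd11b2 inactivates glucocorticoids and so protects the mineralocorticoid receptor. It had 10.53 in colon and 6.58 in small intestine, 15.5-fold higher in the colon. The glucocorticoid target Tsc22d3 was 4.01-fold higher in the small intestine, past 3-fold on 2 of its 3 probe sets above background, and Cdkn1c was 3.33-fold higher in the colon. With the background level at 6 the floored difference of Cdkn1c was -0.87, under 3-fold, and 1 gene in place of 2 was called in the colon. Sgk1, a kinase that both corticosteroid receptors induce, had 11.72 and 12.70, and the target Errfi1 11.55 and 10.14, with another probe set past 3-fold in the colon. None of 8 measured chaperones of steroid receptors reached 3-fold, which is near the share of all named genes, with a median of 0.01. Among these Hsp90aa1 had 12.29 in colon and 12.51 in small intestine, and Hspa8 14.13 and 14.14. The probe sets of Hsp90aa1 above background differed by -0.23 to 0.78.

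The estrogen related receptors bind no known natural hormone and are known for control of mitochondrial genes. Esrra had 7.05 in colon and 7.95 in small intestine (1.87-fold), and its other probe set had 5.19 and 5.59, in the same direction. Esrrg had 5.37 and 5.79 (1.34-fold), both close to the background level. Esrrb was at background, with 3.92 and 3.79. None of 9 measured mitochondrial targets of these receptors reached 3-fold, which is near the share of all named genes, and their median was 0.34. In this list Mdh2 had 14.60 and 15.32 and cytochrome c (Cycs) 13.95 and 14.06. The probe sets of Mdh2 differed by 0.72 to 1.53 and those of Cycs by 0.01 to 0.78.

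The Nr4a receptors are immediate early genes, induced within minutes by stress and growth signals. Nr4a2 had 7.83 in colon and 7.63 in small intestine (1.15-fold), and its 3 probe sets above background differed by -1.08 to -0.20, all in favour of the colon. Nr4a3 had 4.11 and 5.03, which is just over background in the small intestine and at least 1.02-fold. Nr4a1 had 4.87 and 4.38, just under the background level on the colon array. None of 14 immediate early genes reached 3-fold, which is near the share of all named genes, with a median of 0.22. Fos had 12.06 and 12.58, and Fosl2 11.18 and 11.13.

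Of the 6 measured orphan receptors of the Nr2 group none reached 2-fold. Of all named genes 6.95% did so in small intestine and 8.14% in colon, so none among so few is near that share. Nr2c2, also called TR4, had 8.59 in colon and 9.09 in small intestine, 1.42-fold. Nr2c1, its close relative TR2, had 6.32 and 6.05 on the brightest probe set and 5.94 and 6.38 on the next, so that its direction is not settled. Nr2f6 had 9.38 and 9.26 (1.09-fold), and both of its probe sets were slightly higher in the colon. Nr2f2, or COUP-TFII, a receptor of vessel and mesenchymal cells among others, had 6.99 and 6.72 (1.20-fold), with 2 probe sets above background in the same direction. Nr2f1 (4.61 and 4.57) and Nr2e1, a receptor of the brain and retina (3.39 and 3.38), were at background.

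Nr5a2 was the receptor next to Esr1 in its preference for the colon. This receptor, also called LRH-1, controls crypt renewal, bile acid synthesis and local steroid synthesis, and is also expressed in the exocrine pancreas. It had 9.35 in colon and 8.48 in small intestine, which is 1.83-fold, and its 3 probe sets above background differed by -0.87 to -0.32. All 7 measured pancreatic genes, none at background on the colon array and all below it on the small intestine array, stand beside this value, and their part in it was not tested. Of 7 measured genes of steroid synthesis and of Nr5a2 targets, none reached 3-fold and 4 were at background. Ccnd1 had 9.49 and 10.01, with probe sets that differed by -0.13 to 1.29, and Fdx1 had 11.97 and 10.91. Nr6a1, an orphan receptor of germ cells and early embryos, had 5.68 in colon and 6.78 in small intestine (2.15-fold). A further probe set of Nr6a1 differed by 0.20, and the median over its 5 probe sets gave 0. Nr5a1 (3.23 and 3.25), the receptor of adrenal and gonadal steroid synthesis, and Nr0b1 (3.26 and 3.28), its inhibitor, were at background on both arrays.

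Receptors of the family outside the list of 37 numbered 12, of which 9 were measured. Past 3-fold were 1 in small intestine and 3 in colon. Hnf4g, an enterocyte factor, had 4.82 in colon and 8.74 in small intestine (at least 13.4-fold), past 3-fold on 2 of its 3 probe sets. Pparg, which is known for its expression in colonocytes, had 10.74 in colon and 6.74 in small intestine (15.9-fold). The mineralocorticoid receptor Nr3c2, the partner in function of Hsd11b2, was 3.81-fold and the bile acid receptor Nr1h4 3.32-fold higher in the colon. The vitamin D receptor Vdr (10.59 and 9.95), Hnf4a (12.33 and 12.22), Nr1d2 (11.28 and 11.33) and Nr1d1 (4.73 and 5.17) lay under 3-fold, and Nr0b2 (4.24 and 4.88) was at background. The probe sets of Hnf4a differed by -0.72 to 1.85. Whether these receptors differed more often than those of the list was not tested.

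Coregulators of the receptors were above background throughout and none reached 3-fold. Of all named genes 3.46% were past it in small intestine and 3.33% in colon, so no call in lists this short is near that share. The 14 coactivators had a median difference of -0.06, with Ncoa4 at 10.48 in colon and 10.40 in small intestine and the acetyltransferase Kat2b at 10.74 and 10.25. The probe sets of Ncoa4 differed by -1.09 to -0.07. At 2-fold, 2 coactivators were higher in small intestine and 2 in colon. Ppargc1a had 8.23 in colon and 9.47 in small intestine (2.36-fold), on the brightest of its 5 probe sets. Ncoa2 had 9.06 and 10.31 (2.37-fold). Ppargc1b, a relative of Ppargc1a, had 9.52 and 8.02, 2.83-fold higher in the colon. Ncoa3 had 8.60 and 7.18, 2.67-fold higher in the colon. All of them were named after their values were seen. The 7 measured corepressors had a median of -0.78. Nrip1 had 10.69 and 9.69, with probe sets that differed by -1.24 to 0.57, and Lcor had 11.19 and 11.87.

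**Figure D3:**
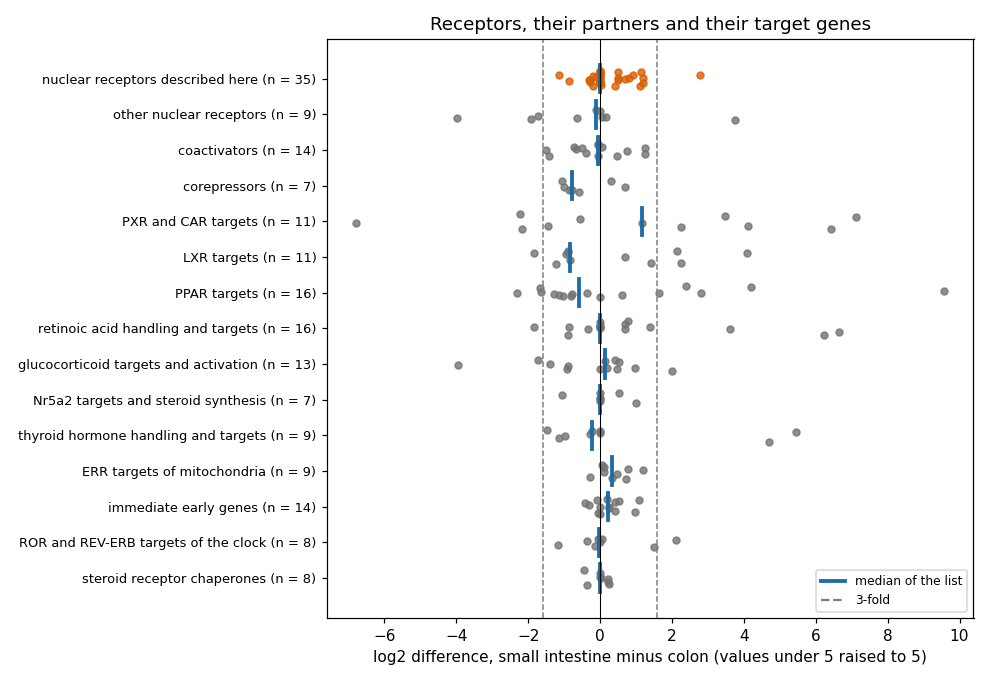
Floored log2 difference, small intestine minus colon, of single genes (points) in the 35 receptors and 14 lists of related genes, 1 row per list. Bars give the median of a row, and 3-fold is drawn dashed. The receptors run from -1.15 to 2.77, and the PXR and CAR targets from -6.78 to 7.11.

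Several probe sets allowed a check within the arrays. The 35 receptors had 99 probe sets, of which 40 were above background on at least 1 array, and 11 receptors had a single probe set. In 13 receptors 2 or more probe sets were above background, and in 9 of these all of them pointed the same way. The 4 with both directions were Ppara, Nr3c1, Nr2c1 and Nr2c2. The differences of Nr1i3, Nr1h3 and Esr1 are bounds that rest on the background level. Those of 2-fold or more measured above background on both arrays (1.10 for Nr6a1, 1.14 for Nr1i2 and 1.19 for Rxra) were smaller than those of the bioC spike-ins, and the pooled SD between probe sets of a gene was 0.59.

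The start regions of the receptors differed in their content of CG dinucleotides, a feature of promoters that are used in many tissues. Windows on chromosome 18 and windows not 300 bases long were left out beforehand. Of the 35 measured receptors, 32 had a RefSeq window among those kept, and Nr3c1, Thra and Nr5a1 had none. The richest window of each receptor held a median of 20 CG dinucleotides, against 18 over 14453 genes named on the arrays. The 6 receptors with a difference of 2-fold or more had a median of 10, running from 2 in Nr1i2 to 55 in Rxra. The 13 receptors above background with a smaller difference had a median of 27, running from 2 in Nr2f2 to 53 in Nr2f6. In the 13 receptors at background the median was 17, with 6 in Pgr and 37 in Thrb as the ends. These classes were formed after the values were seen, the values overlap between all of them, and no test was made. The hexamer AGGTCA, the core that nuclear receptors bind, was searched on both strands. It occurred in 8 of 52 receptor windows (15.4%), against 16.3% of all 32851 windows kept. The 52 are all windows of 34 listed receptors, the unmeasured Nr1h2 and Nr2e3 included. The hexamer was found in windows of Nr0b1, Nr5a2, Nr6a1, Rara, Rarg, Rxra, Rxrg and Thrb and in none of Nr1i2, Nr1i3 or Nr1h3. In Rxra the matches lay in a window other than the one printed, which held none. A match is a string of letters and not a binding site.

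**Figure D4:**
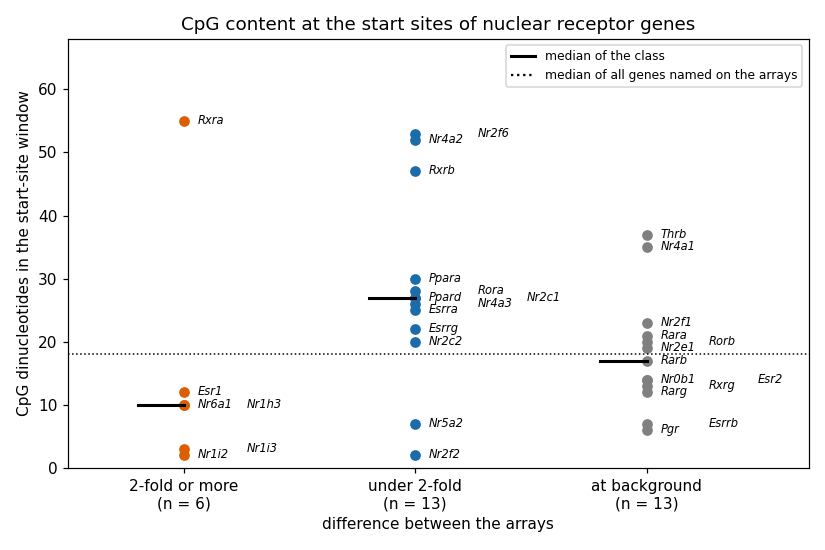
Number of CpG dinucleotides in the richest start-site window of 32 receptors, in 3 classes by the difference between the arrays. Bars are class medians of 10, 27 and 17, and the dotted line is the median of 18 over genes named on the arrays.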

How the data were processed

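Total RNA was extracted by the authors with Qiagen RNeasy, labelled with biotin and hybridised to 1 array per tissue. The authors deposited 1 log2 expression value per probe set and array, already normalized, for 45101 probe sets. The submitters' processing notes name GCRMA, which can widen folds against dim values, while RMA is the method in the study's own text. No source used here states the version or which arrays were normalized together. The study's methods describe jejunum and distal colon of C57B6 mice but point to another series for the arrays, so it is not known whether they apply here.

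Values were used as deposited. Probe sets were named by the platform annotation, 34958 with 1 gene, 932 with several (not used) and 9211 with none or controls. All 99 probe sets of the receptors matched RefSeq by Entrez identifier. The receptors and the gene lists were chosen with earlier results of these data known, and all lists were measured on the same arrays. Named were every receptor, all receptors outside the list, and of every other list, marker lists included, the 4 genes with the largest difference past 3-fold and the 2 with the highest mean level. Of the genes this rule names in marker lists, examples are given beside the counts. The number of arrays limits the precision. The procedure was tested on simulated data. A planned comparison of protein sequences was not run. Alternatives covered the background level, the fold, the scaling and the choice of probe set. Python 3.11.15, numpy 2.4.6, pandas 2.3.3 and matplotlib 3.10.9 were used.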

Additional observations from a re-analysis of the deposited data

Results flagged for a closer look

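A probe set of Ppara that did not represent the gene was past 3-fold in the small intestine, with a difference of 1.74, from 5.53 in the colon to 7.27, while the brightest probe set differed by -0.30. It is on the same arrays and lies outside the comparison of brightest probe sets alone.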

How the results depend on the processing

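Each of the 11 alternatives was computed. The count of receptors past 3-fold in the small intestine was 2 with a background level of 4 and 2 with no floor, since Nr1h3 then joined Nr1i3. At 2-fold it was 5, with 1 receptor in the colon. It was 0 after leaving out probe sets marked _x, _s or _a, which leaves 30 of 35 receptors and drops the single probe sets of Nr1i3 and Nr1h3. With the median over the probe sets of a gene, 12 in place of 21 receptors were above background, and the differences of Rxra, Nr6a1 and Esr1 became 0. Quantile normalization, centring on the median or on spike-ins, 5-fold, a background level of 6, the median over probe sets and the brightest probe set by the higher array left the counts past the fold at 1 and 0. Of 310 receptor differences under alternatives that keep the fold, 293 moved by less than the pooled SD between probe sets, and 17 moved by more. The 310 include those of 14 receptors at background, where the floor sets the difference to 0 and leaves little room to move. Centring also acts little on arrays whose medians were already 4.01 in colon and 3.99 in small intestine. The count of 293 is therefore no measure of how firm the other differences are. The sign turned, from a difference under 2-fold, for the floored difference of Nr3c1 (0.95), the floored difference of Ppara (0.35) and the floored difference of Nr2c1 (0.21) with the median over probe sets, and for Nr2c1 (0.44) with the brightest by the higher array. Among the related genes named in the text, Abca1, Aldh1a3, Angptl4, Col1a1, Pdgfrb, Scd1, Snap25 and Tsc22d3 no longer reached 3-fold when probe sets were summarised by their median, Angptl4, Pdgfrb and Tsc22d3 also without probe sets marked _x, _s or _a, and Abcg8 and Cdkn1c with a background level of 6. Pparg and Abcc2 had 1 probe set each, marked _a and _s. Without marked probe sets they were not measured, so that alternative does not check their differences. No paired analysis was possible because each tissue had 1 array.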

Other observations

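A probe set that names both Ppard and 1810013A23Rik had 4.58 in colon and 3.94 in small intestine, at background on both arrays, and was not used. Markers of endothelium held no gene past 3-fold among 7, those of macrophages 1 of 6 (Cd14, 3.59-fold higher in the colon), and those of enteric neurons and glia 1 of 7 measured (Snap25, 6.30-fold higher in the colon). Of 8 fibroblast markers, 3 were past 3-fold in the colon, led by Postn (9.68-fold), and Pdgfrb was 5.40-fold higher in the small intestine. Of 4 measured adipocyte markers Cidec, a lipid droplet protein, had an excess of at least 9.35-fold in the small intestine, whereas Adipoq had 6.97 and 6.41 (1.47-fold in favour of the colon), Retn was above background in the colon alone (at least 1.41-fold) and Lep lay at background on both arrays. The median of the adipocyte list was -0.25.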
